A study of Homo sapiens with 32 samples.

Results

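RET, the receptor tyrosine kinase of the GDNF family, its co-receptors GFRA1, GFRA2 and GFRA3 and the ligands GDNF, NRTN (neurturin) and ARTN (artemin) were followed in profiles of H3K27ac, the acetylation of histone H3 at lysine 27 that marks active promoters and enhancers. The cells were SK-N-BE(2)C, an established human neuroblastoma line with MYCN amplification and adrenergic (sympathetic neuron-like) character. Cells were kept for 5 days in palbociclib plus retinoic acid (PB+RA), in palbociclib alone (PB, 1 µM, which blocks CDK4 and CDK6, the kinases that let a cell leave G1), in retinoic acid alone (RA, a ligand of nuclear receptors that drives differentiation) or in the solvent DMSO, and each of these 4 groups has 4 ChIP libraries and 4 input libraries. The study's methods describe replicates as separate passages of the same line, so the spread between libraries is that of repeated cultures of 1 line. A region was assigned to a member when the nearest protein-coding start site within 100 kb was that of the gene or when the region lay over the gene body. This gave 44 of the 92108 regions: 5 at RET, 2 at GFRA1, 20 at GFRA2, 1 at GFRA3, 10 at GDNF, 4 at NRTN and 2 at ARTN. Nearness does not show which gene a region acts on.

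Ligands of the GDNF family do not bind RET alone. Each binds a GFRA protein anchored in the membrane, GDNF preferring GFRA1, neurturin GFRA2 and artemin GFRA3, and the pair then brings RET molecules together so that they phosphorylate each other and recruit adaptors that feed the RAS and PI3K pathways. RET signaling supports migration, survival and axon growth of enteric, sympathetic and some sensory neurons, and RET is a known responder to retinoic acid in neuroblastoma cells.

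Values come from the authors' group means and from the authors' peak lists. The group mean is the log2 concentration of reads in a region averaged over 4 libraries, deposited with no spread, and is given as a description. For tests, a peak signal was computed in each library as the mean fold enrichment of the called peaks over the region, with 0 where no peak was called, and the libraries were scaled to a common median. The gene signal is the sum of peak signal times length (in kb) over the regions of a gene. Differences are on the log2(signal + 1) scale, treatment minus DMSO, tested by limma over all 92108 regions or all 16594 genes with a region, and a value is called past an adjusted p of 0.05 and a log2 difference of 0.5. Read depth per library is unknown, and peak numbers between 64516 (DMSO replicate 3) and 104392 (RA replicate 2) stand in for yield. DMSO replicate 3 had a peak in 18 of the 44 member regions, against 28 to 35 in the other DMSO libraries, so results that rest on it are also given without it. Libraries of replicates 1 and 2 deviated from their group means together, as did those of replicates 3 and 4 (median r over regions 0.18 within these sets and -0.19 between them). No label names a batch for these sets. All 8 adrenergic markers had peaks in all 16 libraries, with a summed gene signal of 2370.2 to 2525 in PB+RA, 2835 to 3252 in PB, 1879.5 to 2256 in RA and 2749 to 3189 in DMSO libraries, and some markers of other cell types were marked in all 16 libraries too (3 of 4 mesenchymal, 3 of 4 Schwann, 2 of 4 endothelial and 2 of 4 immune genes, TWIST1 and VWF among them), while PRRX1, PECAM1 and KDR had no region.

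The start sites of RET, GDNF and NRTN are shown, and each lies in a region that passed the test in at least 1 treatment. Regions over a start site of GFRA2 and of ARTN passed with PB too, and their sequences are not shown. The 300 bases before the outermost annotated start were read from GRCh37 (hg19) on the strand of the gene, at chr10:43572212-43572511, chr5:37840144-37840443 and chr19:5804778-5805077. Capitals mark GC boxes (GGGCGG, either strand), the letters bound by Sp family factors.
RET: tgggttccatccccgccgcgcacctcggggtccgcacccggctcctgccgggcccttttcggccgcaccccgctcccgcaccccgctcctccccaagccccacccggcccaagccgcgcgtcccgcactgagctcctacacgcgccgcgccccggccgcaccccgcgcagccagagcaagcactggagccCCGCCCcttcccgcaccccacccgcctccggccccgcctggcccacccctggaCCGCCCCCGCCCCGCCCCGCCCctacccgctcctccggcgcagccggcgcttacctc
GDNF: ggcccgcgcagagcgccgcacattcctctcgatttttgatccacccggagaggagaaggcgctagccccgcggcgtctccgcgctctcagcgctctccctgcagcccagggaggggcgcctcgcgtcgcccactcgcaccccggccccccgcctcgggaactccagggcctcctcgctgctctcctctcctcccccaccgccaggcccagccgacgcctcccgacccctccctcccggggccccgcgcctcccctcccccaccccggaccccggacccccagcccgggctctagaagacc
NRTN: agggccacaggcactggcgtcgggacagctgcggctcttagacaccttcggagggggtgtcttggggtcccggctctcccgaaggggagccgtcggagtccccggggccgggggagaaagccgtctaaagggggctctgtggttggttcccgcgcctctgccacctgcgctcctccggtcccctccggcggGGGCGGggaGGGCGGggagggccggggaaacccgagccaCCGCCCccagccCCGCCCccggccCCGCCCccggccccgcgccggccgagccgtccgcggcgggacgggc
The RET and NRTN windows held 5 GC boxes each and the GDNF window 0, and 51.3% of 18922 windows of the same length before other gene starts held at least 1. G and C made up 80.0% of the RET, 75.7% of the GDNF and 78.0% of the NRTN window.

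Across the family, the receptor gene RET and the ligand gene GDNF gained acetylation and the co-receptor gene GFRA2 and the ligand gene NRTN lost it, in different treatments. Against DMSO, PB+RA raised 6 of the 44 regions and lowered 7, where 18.5% of all regions rose and 12.2% fell. PB raised 2 and lowered 7, where 4.83% of all regions rose and 4.34% fell. RA raised 6 and lowered 1, where 10.3% of all regions rose and 6.61% fell. Over the 44 regions, the median log2 difference was -0.46 with PB+RA, -0.37 with PB and -0.03 with RA, beside medians of 0 over all regions in each comparison. GFRA2 holds 20 of the 44 regions, so it weighs most in these values. It gave 5 of the 7 decreases with PB+RA and 4 of the 7 with PB. Medians with PB+RA were below 0 at GFRA2 (-0.78), NRTN (-0.68), ARTN (-0.23) and GFRA1 (-0.20). They were above 0 at RET (0.03), GFRA3 (0.19) and GDNF (0.59). Without DMSO replicate 3 the decreased regions numbered 13 with PB+RA, 12 with PB and 7 with RA. When the regions were instead centred within classes of GC content, the decreased regions numbered 1 with PB+RA, 2 with PB and 1 with RA, so the count of decreases rests on how base composition is treated. How many of all regions fell without DMSO replicate 3 or after GC centring is not given here. These counts therefore describe the members alone and do not set them apart from other regions.

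At the level of whole genes, GDNF rose in all 3 treatments, RET in RA and PB+RA, NRTN fell in all 3 treatments, GFRA2 in PB and PB+RA, and ARTN in PB. Among all 16594 genes, 15.2% rose and 19.4% fell with PB+RA, 4.72% rose and 12.4% fell with PB, and 9.02% rose and 6.76% fell with RA. GFRA1 and GFRA3 passed the test in no treatment. The total length under peaks in the 44 regions averaged 170.4 ± 14.7 kb in PB+RA, 142 ± 10.5 kb in PB, 189 ± 8.13 kb in RA and 181 ± 36.7 kb in DMSO libraries (SD, n = 4 each), and exact two-sided permutation of the libraries gave p = 0.60 for PB+RA, p = 0.11 for PB and p = 0.80 for RA. Adjusted over 9 comparisons of length, peak number and regions with a peak, no p was under 0.51 in this exact test, whose smallest possible p is 0.029.

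**Figure D1:**
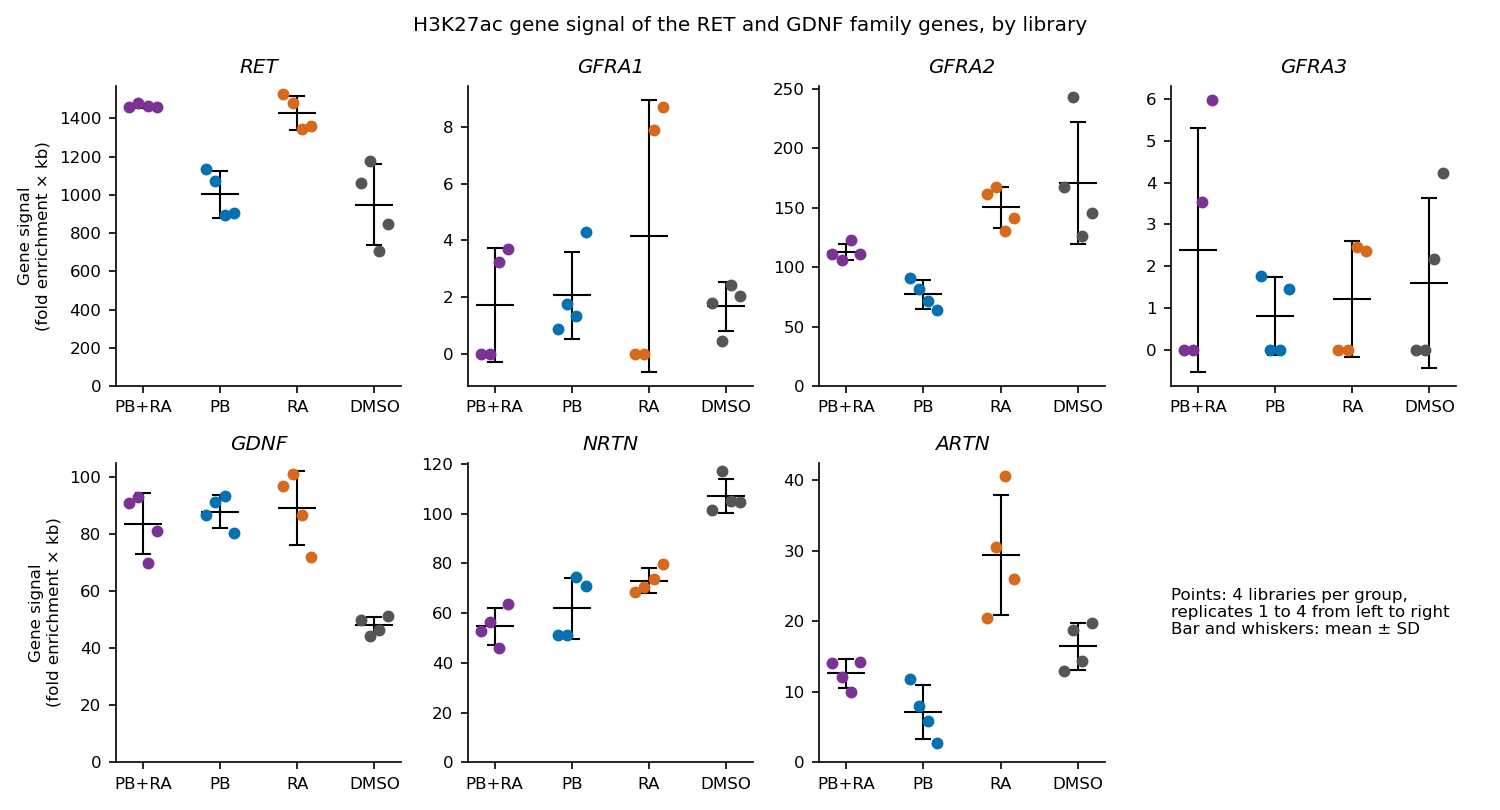
Gene signal (fold enrichment × kb, linear axis) of each member in every library, with the mean and SD of 4 libraries per group. RET libraries in PB+RA (1459 to 1478) and RA (1344 to 1529) lay above all PB and DMSO libraries (707 to 1180.0), and all NRTN libraries of the treated groups lay below those in DMSO.

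The deposited group means describe the same regions without a test. The mean log2 concentration differed from DMSO by more than 0.5 upward at 7 of the 44 regions with PB+RA (32.1% of all regions), 4 with PB (21% of all) and 10 with RA (27.9% of all). It was lower by more than 0.5 at 23 regions with PB+RA (31.7% of all), 24 with PB (26.8% of all) and 15 with RA (21.5% of all). By gene, the median difference was highest at GDNF (0.71 with PB+RA, 0.45 with PB and 0.59 with RA) and lowest at NRTN (-1.34 with PB+RA, -1.21 with PB and -0.80 with RA). All 4 NRTN regions lay below -0.5 in each treatment, as did 17 of 20 GFRA2 regions with PB+RA, 18 with PB and 8 with RA.

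**Figure D2:**
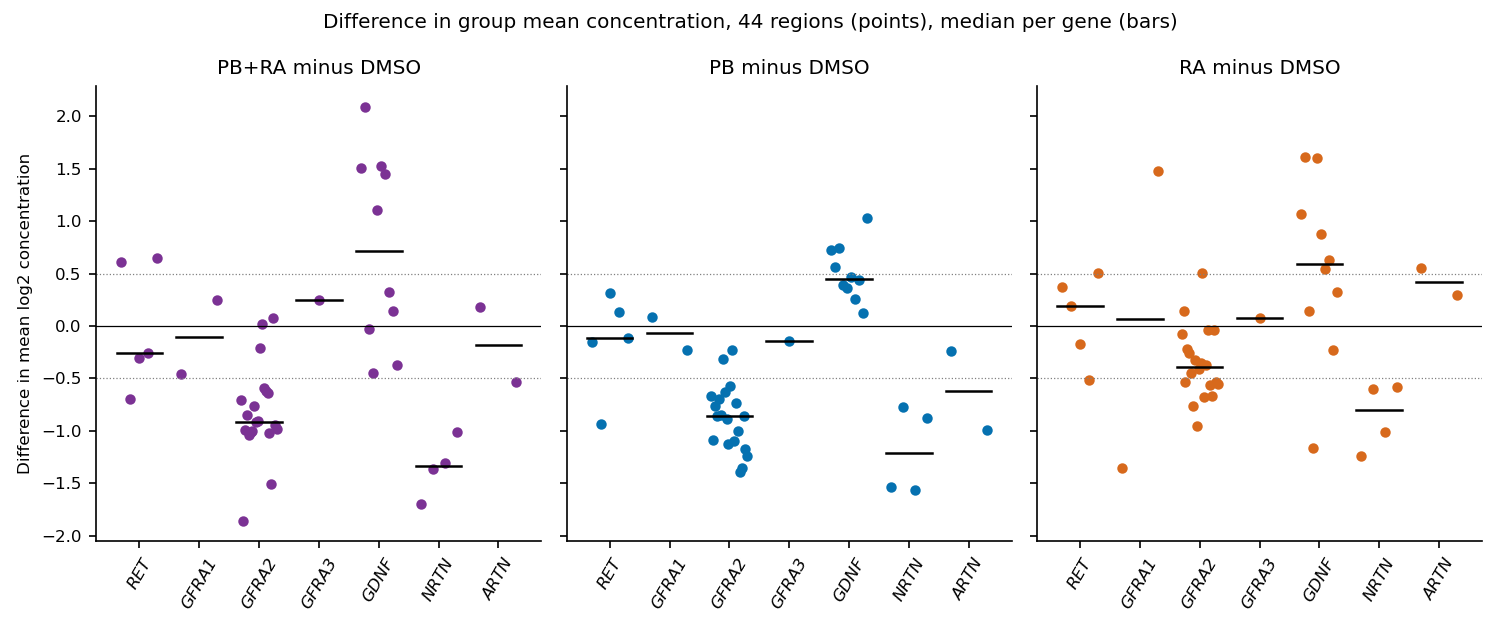
Difference in mean log2 concentration between each treatment and DMSO (y axis) for the 44 regions (points), by gene, with the median of each gene as a bar and dotted lines at 0.5 and -0.5. GFRA2 and NRTN regions sit mostly below the lower line with PB+RA and PB, and GDNF regions mostly above 0, with a highest difference of 2.09 in PB+RA.

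RET, on chromosome 10 (43572512 to 43625799, forward strand), gained acetylation in the libraries that had received RA and not with PB alone. The RET gene signal was 1459, 1478, 1465 and 1461 in PB+RA libraries, 1138, 1074, 893 and 906 in PB libraries, 1529, 1479.7, 1344 and 1361 in RA libraries, and 1063, 1180.0, 707 and 848 in DMSO libraries. Every PB+RA and RA library lay above every DMSO library, and the PB and DMSO libraries overlapped. RET rose by 0.65 ± 0.13 (SE) with PB+RA (adjusted p = 0.00053) and by 0.61 ± 0.13 with RA (adjusted p = 0.0018), whereas the difference with PB was 0.10 ± 0.13 (adjusted p = 0.65). Without scaling of the libraries both calls were lost (0.60 with PB+RA, adjusted p = 0.073, and 0.55 with RA, adjusted p = 0.19). PB+RA was above PB by 0.56 (adjusted p = 0.0048), where 9.84% of all genes were higher and 5.52% lower, and lay 0.04 from RA (adjusted p = 0.86). Without DMSO replicate 3, RET differed from DMSO by 0.48 with RA, which is under the fold minimum (adjusted p = 0.0046), by 0.52 with PB+RA (adjusted p = 0.0012) and by -0.03 with PB. The difference in replicates 1 and 2 was 0.39 with PB+RA, -0.02 with PB and 0.43 with RA, and in replicates 3 and 4 it was 0.92 with PB+RA, 0.22 with PB and 0.80 with RA.

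Most of this signal came from a single region that spans the whole gene, chr10:43531273-43635455 (104 kb, wider than 99.99% of all regions), which starts upstream of RET and ends past the start of the neighbor CSGALNACT2, an enzyme of chondroitin sulfate synthesis. Its peak signal was 9.09, 9.69, 9.47 and 10.0 in PB+RA libraries, 6.87, 6.44, 5.86 and 5.82 in PB libraries, 9.71, 9.49, 9.15 and 9.13 in RA libraries, and 6.57, 6.86, 4.34 and 5.44 in DMSO libraries. The PB+RA and RA libraries stood above all others. The region rose by 0.65 with PB+RA (adjusted p = 0.0020) and 0.62 with RA (adjusted p = 0.0048), and PB+RA exceeded PB by 0.55 (adjusted p = 0.014), where 11.1% of all regions were higher and 5.34% lower. The deposited mean log2 concentration was 13.74 in PB+RA, 12.97 in PB, 13.59 in RA and 13.08 in DMSO. The longest peak in the region measured 31.7 to 88.0 kb in PB+RA, 13.7 to 30.4 kb in PB, 38.1 to 91.2 kb in RA and 12.7 to 48.9 kb in DMSO. The number of peaks was 3 to 15 in PB+RA, 17 to 23 in PB, 4 to 10 in RA and 6 to 18 in DMSO, so that both measures overlapped between the RA-treated and the DMSO libraries.

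Stretches of the long region were read one by one. Within 3 kb of the RET start the scaled fold enrichment averaged 12.9 ± 3.30 in PB+RA, 13.5 ± 1.21 in PB, 11.9 ± 3.20 in RA and 11.6 ± 3.01 in DMSO (SD, n = 4 each), and the groups overlapped. In the 38.2 kb upstream it averaged 9.89 ± 0.95 in PB+RA, 5.49 ± 0.68 in PB, 9.36 ± 1.55 in RA and 5.41 ± 1.28 in DMSO, and no PB+RA or RA library (lowest 8.06) reached down to a DMSO library (highest 6.59). In the rest of the gene it averaged 9.18 ± 1.5 in PB+RA, 6.19 ± 0.51 in PB, 9.35 ± 1.0504 in RA and 5.57 ± 1.97 in DMSO, where 1 PB+RA library (7.08) lay below the highest DMSO library (7.62). From 3 kb before the CSGALNACT2 start to the region end it ran from 7.19 to 16.7 in PB+RA, 7.65 to 11.5 in PB, 13.3 to 15.98 in RA and 8.15 to 13.4 in DMSO, with PB+RA and DMSO overlapping. The 5.09 kb between the end of RET and the zone around the CSGALNACT2 start were almost bare in DMSO (0 to 0.33), against 2.64 to 6.94 in PB+RA, 0.64 to 1.17 in PB and 1.046 to 3.33 in RA. These stretches were set from the annotation after the profile had been seen, a broad peak carries 1 enrichment value over its whole length, and no test was run on them.

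**Figure D3:**
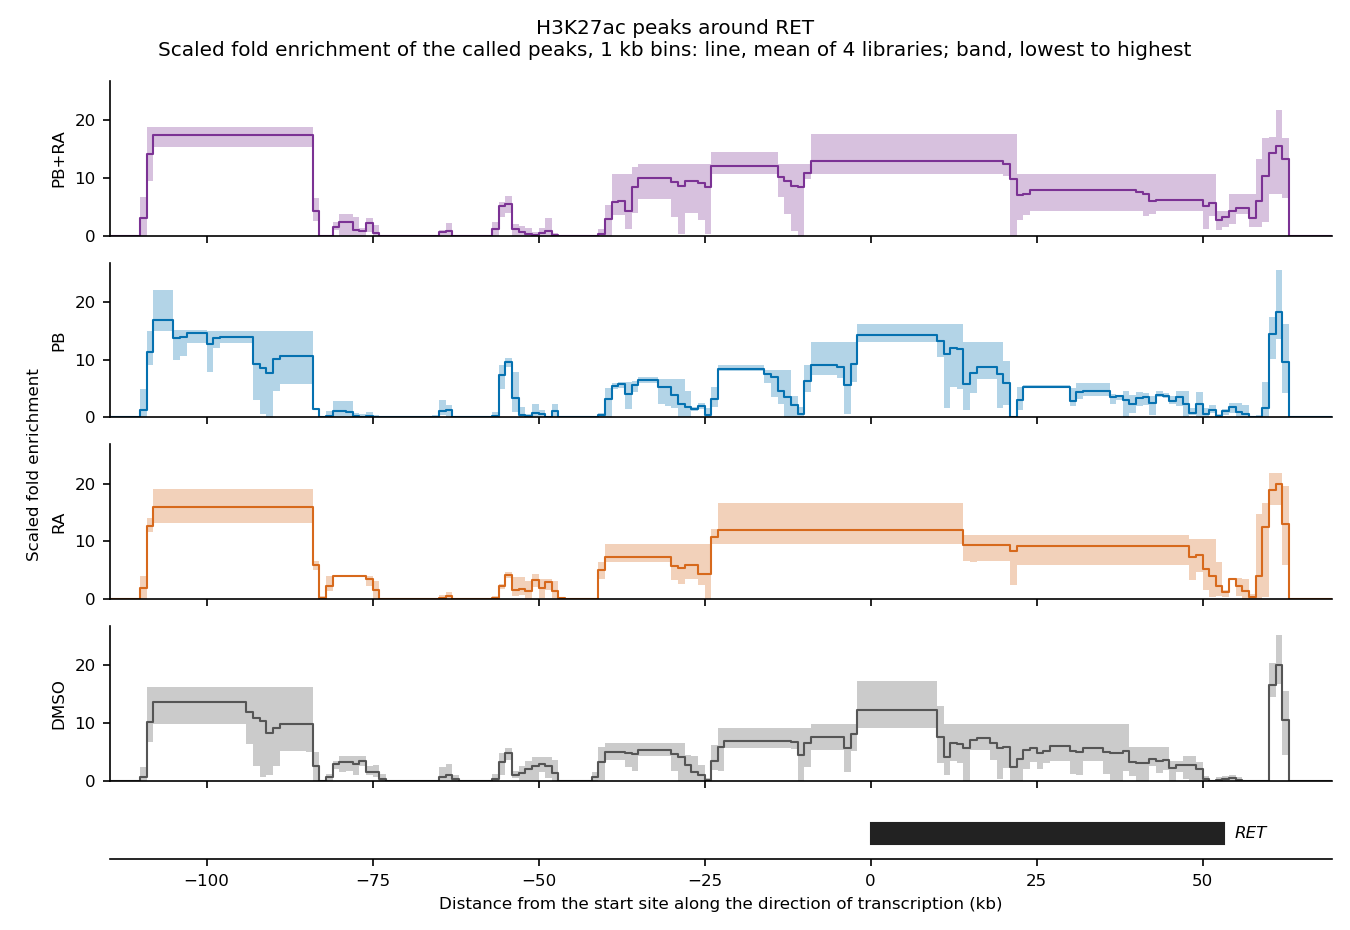
Scaled fold enrichment of called peaks (y axis) in 1 kb bins against distance from the RET start site (kb, negative upstream), 1 panel per group, with the mean of 4 libraries as a line and the range as a band. From the 0.5 to the 9.5 kb bin the line stands at 14.3 in PB, 12.9 in PB+RA, 12.3 in DMSO and 11.9 in RA. From 3 kb past the start to the gene end it averages 9.18 in PB+RA and 9.35 in RA, against 6.19 in PB and 5.57 in DMSO. The peak around the CSGALNACT2 start stands at the right in all groups.

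A direct repeat of 2 hormone receptor half-sites (the string AGGTCA, the string AGTTCA, the string GGGTCA or the string GGTTCA) spaced by 5 bases, the arrangement that retinoic acid receptors are known to prefer, was found once in the long RET region. It lies in a RET intron, 28.9 kb after the start, at chr10:43601429-43601475 with 15 bases on either side, and is shown on the reverse strand with the half-sites in capitals.
RET intron: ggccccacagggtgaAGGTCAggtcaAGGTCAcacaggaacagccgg
Such a repeat occurred in 0.364% of the central 1 kb of all 92092 regions on the reference, a window far shorter than the 104 kb searched at RET. All 16 libraries had a peak over the RET site. Scaled fold enrichments were 4.30 to 10.7 in PB+RA, 5.08 to 5.70 in PB, 5.91 to 11.1 in RA and 3.397 to 9.73 in DMSO. The groups overlapped there. The repeat was not particular to RET. It was also found in a region inside GFRA2, a gene not shown to change with RA (-0.14, limma adjusted p = 0.67). Half-sites spaced by 2 bases lay in the long RET region, in other GFRA2 regions and in the ARTN region before the start. A link between these repeats and the changes in acetylation was not tested.

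Further upstream, RET regions moved separately. The region at chr10:43463162-43488968 (25.8 kb long, 83.5 kb before the start) had a peak signal of 18.7, 17.6, 17.3 and 14.8 in PB+RA libraries, against 12.5, 15.9, 9.02 and 9.40 in DMSO libraries, and 3 of 4 PB+RA libraries lay above all DMSO libraries. It rose by 0.54 with PB+RA (adjusted p = 0.023), a call that was lost without PB+RA replicate 1, DMSO replicate 3 or DMSO replicate 4 (lowest difference 0.44, highest adjusted p = 0.080). The region at chr10:43490407-43498912 went the other way, with 1.08, 0.32, 1.83 and 1.83 in PB+RA libraries, 0.96, 0.52, 0.49 and 0 in PB libraries, 2.78, 3.27, 3.26 and 3.35 in RA libraries, and 2.86, 2.49, 1.83 and 1.85 in DMSO libraries. All PB libraries lay below all DMSO libraries there. It fell by 1.15 with PB (adjusted p = 0.0069) and by 0.94 in PB+RA relative to RA (adjusted p = 0.018), where 8.58% of all regions were higher and 5.88% lower. The second call was lost without PB+RA replicate 2 (difference -0.70, adjusted p = 0.065).

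GFRA2, the preferred partner of neurturin, on chromosome 8 (21547910 to 21669869, reverse strand), lost acetylation with PB, less so with PB+RA, and was not shown to change with RA. Its gene signal was 111, 106, 123 and 111 in PB+RA libraries, 91.1, 81.9, 71.8 and 63.5 in PB libraries, 162, 167, 131 and 142 in RA libraries, and 168, 244, 126 and 146 in DMSO libraries. All PB and PB+RA libraries lay below all DMSO libraries, and the RA libraries overlapped them. GFRA2 fell by 1.10 ± 0.17 (SE) with PB (adjusted p = 0.00023) and by 0.55 ± 0.17 with PB+RA (adjusted p = 0.014), and differed by -0.14 ± 0.17 with RA (adjusted p = 0.67). PB+RA lay above PB by 0.55 (adjusted p = 0.026), a call lost without PB+RA replicate 1 or 3 or PB replicate 3 or 4 (lowest difference 0.47, highest adjusted p = 0.092), and below RA by 0.41 without passing (difference -0.41, adjusted p = 0.091). The PB+RA call was also lost with signals centred within GC classes (-0.45), without scaling (-0.61) and at a stricter peak threshold (-0.31). The PB+RA call was lost without DMSO replicate 2 (difference -0.36, adjusted p = 0.068), and without DMSO replicate 3 the difference was -0.68 with PB+RA and -1.23 with PB. The difference in replicates 1 and 2 was -0.89 with PB+RA and -1.22 with PB, and in replicates 3 and 4 it was -0.21 with PB+RA and -0.99 with PB.

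A GFRA2 region, chr8:21667087-21672682, covers the outermost annotated start and is centred -23.5 kb from the main start of the gene (negative upstream). No region lay over the main start. The region at the outermost start had 1.38, 1.59, 2.25 and 2.50 in PB+RA libraries, 2.01, 1.07, 1.91 and 0.60 in PB libraries, 2.66, 2.48, 2.68 and 4.46 in RA libraries, and 3.25, 5.16, 2.53 and 3.80 in DMSO libraries. No PB+RA or PB library reached the lowest DMSO library. It fell by 0.99 with PB (adjusted p = 0.0096) and by 0.67 with PB+RA (adjusted p = 0.032), the second of which was lost without PB+RA replicate 1 or 2 or DMSO replicate 2 or 4 (highest adjusted p = 0.12). The best marked GFRA2 region lay upstream, at chr8:21689641-21703116 (13.5 kb long, 19.8 kb before the outermost start), with 6.57, 6.39, 6.75 and 5.38 in PB+RA libraries, 4.31, 3.72, 3.01 and 2.61 in PB libraries, 7.33, 7.18, 5.67 and 6.27 in RA libraries, and 4.55, 6.71, 6.97 and 4.23 in DMSO libraries. Every PB library there lay below every PB+RA and RA library, and 1 PB library reached into the DMSO range. The region was higher in PB+RA than in PB by 0.73 (adjusted p = 0.0053) and fell by 0.57 with PB against DMSO (adjusted p = 0.043), a call lost without PB replicate 2, 3 or 4 or DMSO replicate 2 or 3 (highest adjusted p = 0.13).

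Of the 20 GFRA2 regions, 5 passed the test as lower with PB+RA (12.2% of all regions) and 4 with PB (4.34% of all regions). An intronic region rose with RA (chr8:21623418-21624213), with 0.81, 2.50, 1.03 and 0 in RA libraries and no peak in the other groups (adjusted p = 0.036), a call lost in 6 of 8 leave-one-out fits. An intronic region at chr8:21595128-21606623 had 0.88, 0.74, 0.73 and 0.82 in PB+RA libraries, against 2.47, 3.86, 1.15 and 1.99 in DMSO libraries, with no overlap. It fell by 0.85 with PB+RA (adjusted p = 0.014), and by 0.65 without DMSO replicate 2, which ended the call (adjusted p = 0.078). A short upstream region at chr8:21715223-21716496 had no peak in any PB+RA or PB library and 2.99, 1.41, 0 and 1.70 in DMSO libraries, so that only DMSO replicate 3 matched the treated libraries (adjusted p = 0.016 with PB+RA and 0.042 with PB). Leaving out DMSO replicate 1 ended both calls, and leaving out any PB library or DMSO replicate 2 or 4 ended the PB call (highest adjusted p = 0.13). The largest differences in mean concentration were at 2 small regions with few peaks, chr8:21551848-21552203 (-1.86 with PB+RA, no peak in any PB+RA, PB or DMSO library) and chr8:21680523-21681778 (-1.51 with PB+RA and -1.36 with PB, peaks in 2 DMSO libraries).

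**Figure D4:**
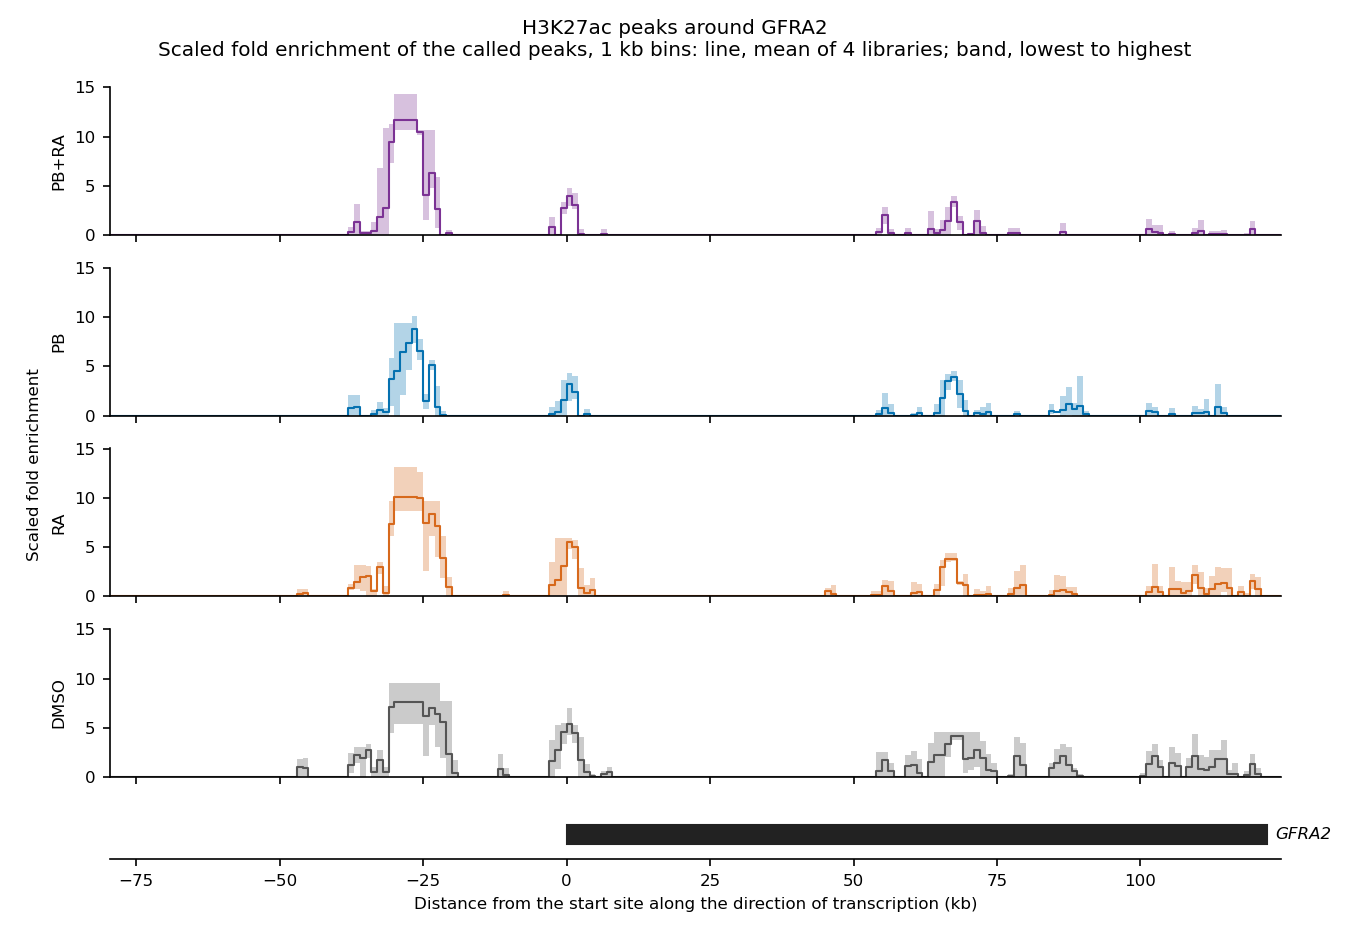
Scaled fold enrichment of called peaks (y axis) in 1 kb bins against distance from the outermost annotated GFRA2 start site (kb, negative upstream), 1 panel per group, with the mean of 4 libraries as a line and the range as a band. The upstream region is lowest in PB, with a peak signal of 2.61 to 4.31, and the small intronic peaks of the DMSO libraries are lower or missing in PB+RA and PB.

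GFRA1 and GFRA3, the co-receptors that GDNF and artemin prefer, were barely marked in these cells. Per kb of region, the mean signal in DMSO libraries was 0.50 ± 0.25 at GFRA1 and 0.78 ± 1.00 at GFRA3, against 2.55 ± 0.77 at GFRA2 and 6.31 ± 1.41 at RET (SD, n = 4 each). The GFRA1 start site region, chr10:118031750-118034127, had 0, 0, 1.08 and 1.56 in PB+RA libraries, 0, 0, 0 and 0.44 in PB libraries, 0, 0, 3.32 and 3.16 in RA libraries, and 0, 0, 0 and 0.85 in DMSO libraries. Its marked libraries were all from replicates 3 and 4, and its mean log2 concentration was 1.48 higher with RA than with DMSO. The GFRA3 start site region, chr5:137609842-137611881, had 0, 0, 1.73 and 2.93 in PB+RA libraries, 0.86, 0, 0 and 0.71 in PB libraries, 0, 0, 1.201 and 1.15 in RA libraries, and 0, 0, 1.06 and 2.08 in DMSO libraries. Neither gene nor start site passed a test, and the largest gene difference from DMSO, -0.32 ± 0.69 (SE) at GFRA3 with PB, was within its error. An intronic GFRA1 region, chr10:117828982-117829954, had 0, 0, 0.69 and 0 in PB+RA libraries, against 0.88, 1.82, 1.38 and 3.32 in PB libraries, and was lower in PB+RA than in PB by 1.25 (difference -1.25, adjusted p = 0.029), a call lost without PB+RA replicate 1, 2 or 4 or PB replicate 2 or 4 (highest adjusted p = 0.11).

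GDNF, the founding ligand of the family, on chromosome 5 (37812779 to 37840143, reverse strand), gained acetylation in every treatment. Its gene signal was 90.9, 93.1, 69.96 and 81.4 in PB+RA libraries, 86.8, 91.4, 93.4 and 80.4 in PB libraries, 97.1, 101, 86.7 and 72.0 in RA libraries, and 49.9, 44.4, 46.6 and 51.3 in DMSO libraries. All 12 treated libraries lay above all DMSO libraries, and the treated groups overlapped. GDNF rose by 0.78 ± 0.14 (SE) with PB+RA (adjusted p = 0.00015), by 0.86 ± 0.14 with PB (adjusted p = 0.00034) and by 0.87 ± 0.14 with RA (adjusted p = 8.7e-05). PB+RA differed by -0.08 from PB (adjusted p = 0.78) and by -0.09 from RA (adjusted p = 0.69), where 6.83% of all genes were higher and 11.6% lower in PB+RA than in RA. The effect of PB with RA present was lower than its effect without RA by 0.95 (difference -0.95 ± 0.19 SE, adjusted p = 0.020), a decrease found at 0.428% of all genes; this call was lost without RA replicate 1 or RA replicate 2 (highest adjusted p = 0.054).

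Regions of GDNF differed in which treatments marked them. The start site region, chr5:37832981-37841614, had 6.78, 7.005, 4.87 and 7.35 in PB+RA libraries, 8.90, 9.16, 9.05 and 7.63 in PB libraries, 9.28, 9.47, 8.14 and 7.23 in RA libraries, and 5.53, 4.59, 4.76 and 5.36 in DMSO libraries. The single drugs stood clear of DMSO, and PB+RA lay between, with 1 library inside the DMSO range. It rose by 0.68 with PB (adjusted p = 0.0082) and by 0.65 with RA (adjusted p = 0.0046), and differed by 0.30 with PB+RA (adjusted p = 0.14). The PB effect at this start site was lower with RA than without it by 1.03 (difference -1.03, adjusted p = 0.04995), a decrease found at 0.0999% of all regions, and the call was lost when any of the 16 libraries was left out (highest adjusted p = 0.11).

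At the 3' side of the gene the order was different. Region chr5:37737265-37740979, 93.9 kb from the GDNF start and inside the gene WDR70, had 3.13, 4.19, 2.30 and 1.75 in PB+RA libraries, 0, 0.38, 0.16 and 0 in PB libraries, 0.49, 0.91, 1.03 and 0.33 in RA libraries, and no peak in any DMSO library. PB+RA libraries stood above every other library. The difference on the log2(signal + 1) scale was 1.90 with PB+RA (adjusted p = 3.8e-05), and PB+RA was above PB by 1.73 (adjusted p = 0.00025) and above RA by 1.17 (adjusted p = 0.011). A peak in 4 of 4 treated and 0 of 4 DMSO libraries was found at this member region alone with PB+RA (5.66% of all regions) and at this region alone with RA (2.92% of all regions). Its neighbor, chr5:37735238-37736839, had 4.25, 4.68, 3.91 and 2.91 in PB+RA libraries, 3.19, 2.37, 2.69 and 1.29 in RA libraries, and 1.37, 0, 1.33 and 1.01 in DMSO libraries. It rose by 1.42 with PB+RA (adjusted p = 0.00015) and by 0.86 with RA (adjusted p = 0.019), the second call being lost without RA replicate 1 or DMSO replicate 2 (highest adjusted p = 0.096).

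Closer to the gene, the region at chr5:37809992-37811338, just past the 3' end, had 1.72, 1.46, 2.67 and 1.21 in PB+RA libraries, 0.32, 0, 1.67 and 1.04 in PB libraries, 2.52, 2.55, 2.73 and 2.51 in RA libraries, and 0, 0, 0 and 0.64 in DMSO libraries. It was most even in RA, where it rose by 1.66 (adjusted p = 0.00032), and it rose by 1.26 with PB+RA (adjusted p = 0.0026). The region at chr5:37816055-37819543, inside the gene and over an exon, had 2.46, 1.76, 1.78 and 1.46 in PB+RA libraries, 0.32, 0, 0.24 and 0.55 in PB libraries, 1.89, 2.17, 0.71 and 0.44 in RA libraries, and 0, 0.45, 0 and 0.13 in DMSO libraries. It rose by 1.33 with PB+RA (adjusted p = 0.0021), was higher in PB+RA than in PB by 1.17 (adjusted p = 0.010) and rose by 0.95 with RA (adjusted p = 0.036), a call lost without RA replicate 1 or 2 or DMSO replicate 1, 3 or 4 (highest adjusted p = 0.13).

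On the 5' side, region chr5:37938592-37939707, 98.4 kb upstream of the GDNF start, was marked with PB alone. It had 2.38, 1.42, 1.10 and 0.89 in PB libraries and no peak in any PB+RA, RA or DMSO library. It rose by 1.26 with PB (adjusted p = 0.0065) and was lower in PB+RA than in PB by the same amount (difference -1.26, adjusted p = 0.0028), and it was the only member region with a peak in 4 of 4 PB and 0 of 4 DMSO libraries (0.84% of all regions). Region chr5:37791036-37793401, past the 3' end, had no peak in any PB+RA or RA library, 1.36, 0.87, 0.77 and 1.31 in PB libraries, and 0, 0.64, 0.68 and 0.88 in DMSO libraries, and was lower in PB+RA than in PB (difference -1.04, adjusted p = 0.019; 0.051 without PB replicate 1). The outermost regions on both sides lie close to the 100 kb limit, and those on the 3' side lie in WDR70. Where a whole group had no peak, the size of the difference depends on the 1 added before the logarithm and is no fold change.

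The central 300 bases of the 3' region with peaks in all PB+RA and RA libraries, 2 PB libraries and no DMSO library (chr5:37738972-37739271), and of the 5' region with peaks in PB libraries alone (chr5:37938999-37939298), are shown as the distal GDNF regions with a peak in 4 treated and 0 DMSO libraries, forward strand, with hormone receptor half-sites (the 4 letter strings named above, either strand) in capitals.
GDNF 3' region: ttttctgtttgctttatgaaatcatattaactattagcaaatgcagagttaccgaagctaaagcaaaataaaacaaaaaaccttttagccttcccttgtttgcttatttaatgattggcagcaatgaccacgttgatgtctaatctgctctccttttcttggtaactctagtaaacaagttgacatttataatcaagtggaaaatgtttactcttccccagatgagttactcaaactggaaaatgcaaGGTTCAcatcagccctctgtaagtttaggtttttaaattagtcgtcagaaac
GDNF 5' region: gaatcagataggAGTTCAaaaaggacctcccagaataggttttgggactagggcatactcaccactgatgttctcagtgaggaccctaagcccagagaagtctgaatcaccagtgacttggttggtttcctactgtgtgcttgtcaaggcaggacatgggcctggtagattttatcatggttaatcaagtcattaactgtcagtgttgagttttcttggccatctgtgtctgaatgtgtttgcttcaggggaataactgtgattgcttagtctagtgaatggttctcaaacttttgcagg
Each held 1 half-site, and 47.0% of the central 300 bases of all regions held at least 1. G and C made up 34.3% of the 3' window and 44.3% of the 5' window, so both are far poorer in G and C than the start sites above.

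**Figure D5:**
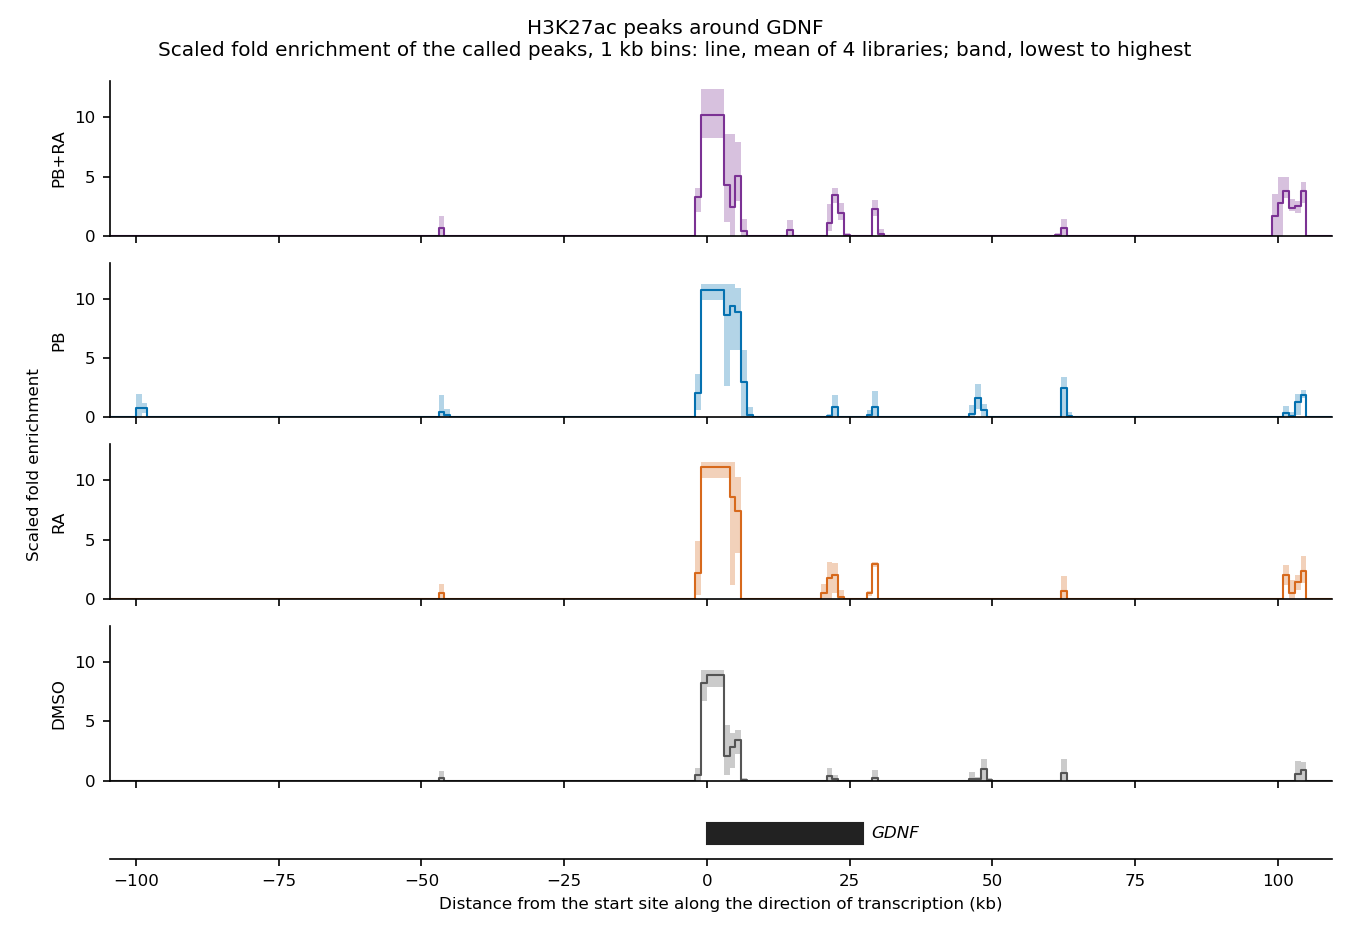
Scaled fold enrichment of called peaks (y axis) in 1 kb bins against distance from the GDNF start site (kb, negative upstream), 1 panel per group, with the mean of 4 libraries as a line and the range as a band. The start site peak is present in all groups, the peaks at the far right stand highest in PB+RA (1.75 to 4.19 in the region with no peak in DMSO), and the peak at the far left appears in PB alone.

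NRTN, which encodes neurturin, on chromosome 19 (5805078 to 5828335, forward strand), lost acetylation in every treatment. Its gene signal was 52.8, 56.3, 46.0 and 63.9 in PB+RA libraries, 51.4, 51.4, 74.4 and 70.7 in PB libraries, 68.4, 70.7, 73.9 and 79.6 in RA libraries, and 102, 117, 105 and 105 in DMSO libraries. All 12 treated libraries lay below all DMSO libraries. Most of the NRTN gene signal came from the region over the 3' end, chr19:5826175-5830552. This region is 4.38 kb long with a mean peak signal of 15.9 in DMSO, where the mean gene signal was 107. It was assigned by the gene body alone, and its nearest start site is that of the neighbor FUT6. NRTN fell by 0.96 ± 0.15 (SE) with PB+RA (adjusted p = 3.5e-05), by 0.80 ± 0.15 with PB (adjusted p = 0.0011) and by 0.54 ± 0.15 with RA (adjusted p = 0.012). PB+RA lay below RA by 0.42 (difference -0.42, adjusted p = 0.049), under the fold minimum. With signals centred within GC classes, the difference was -0.36 with PB+RA (adjusted p = 0.073), -0.09 with PB (adjusted p = 0.78) and -0.55 with RA (adjusted p = 0.012); the 4 NRTN regions have a GC content of 57.7% to 64.9%.

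The start site region of NRTN fell in every treatment and the region over its 3' end with PB+RA. The start site region, chr19:5797711-5806626, had 0.49, 0.65, 1.31 and 1.91 in PB+RA libraries, 0.71, 0.77, 1.37 and 1.87 in PB libraries, 0.48, 0.66, 2.70 and 2.77 in RA libraries, and 3.09, 4.28, 3.55 and 5.15 in DMSO libraries. No treated library reached the lowest DMSO library, and in each treated group replicates 1 and 2 lay below replicates 3 and 4. It fell by 1.30 with PB+RA (adjusted p = 0.0020), by 1.22 with PB (adjusted p = 0.012) and by 1.04 with RA (adjusted p = 0.018), the last call being lost without RA replicate 1 or 2 or DMSO replicate 4 (highest adjusted p = 0.081). The region over the 3' end, chr19:5826175-5830552, which also covers part of the fucosyltransferase gene FUT6, had 11.1, 11.5, 7.84 and 10.4 in PB+RA libraries, 10.3, 10.2, 13.8 and 11.9 in PB libraries, 14.5, 14.2, 11.4 and 12.1 in RA libraries, and 16.4, 17.3, 16.8 and 13.1 in DMSO libraries. It fell by 0.60 with PB+RA (adjusted p = 0.0055), and differed by -0.43 with PB (adjusted p = 0.084) and by -0.26 with RA (adjusted p = 0.26) without passing. Without PB+RA replicate 3 the PB+RA difference was -0.48, under the fold minimum. The intronic regions chr19:5808025-5809323 and chr19:5824965-5825642 had peaks in 0 and 1 PB+RA libraries and in 3 and 2 DMSO libraries, and neither passed a test.

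ARTN, which encodes artemin, on chromosome 1 (44398992 to 44402912, forward strand), was lowest with PB and highest with RA. Its gene signal was 14.1, 12.1, 9.94 and 14.3 in PB+RA libraries, 11.8, 8.01, 5.89 and 2.69 in PB libraries, 20.4, 30.5, 40.6 and 25.9 in RA libraries, and 12.9, 18.8, 14.3 and 19.8 in DMSO libraries. All PB libraries lay below and all RA libraries above the DMSO range, and the PB+RA libraries overlapped it. ARTN fell by 1.22 ± 0.31 (SE) with PB (adjusted p = 0.0096), differed by 0.78 ± 0.31 with RA without passing (adjusted p = 0.097) and by -0.35 ± 0.31 with PB+RA (adjusted p = 0.40). The PB call was lost with signals centred within GC classes (-0.91, adjusted p = 0.071) and at a stricter peak threshold (-1.01, adjusted p = 0.082). PB+RA was lower than RA by 1.13 (difference -1.13, adjusted p = 0.014), a call lost without RA replicate 3 (difference -0.96, adjusted p = 0.058). The region over the start site and the short gene, chr1:44398169-44403542, had 0.97, 0.92, 0.44 and 1.22 in PB+RA libraries, 0.81, 0.62, 0.13 and 0 in PB libraries, 1.34, 2.06, 4.87 and 3.13 in RA libraries, and 1.36, 1.46, 1.56 and 1.84 in DMSO libraries. It fell by 0.92 with PB (adjusted p = 0.046), a call lost when any of 7 of the 8 libraries was left out (highest adjusted p = 0.11), and was lower in PB+RA than in RA (difference -0.96, adjusted p = 0.027; highest adjusted p = 0.11, without RA replicate 3 or 4 or PB+RA replicate 3). The region just before it, chr1:44393274-44398041, lies in the body of ST3GAL3, a sialyltransferase gene, and had 1.87, 1.504, 1.59 and 1.62 in PB+RA libraries, 1.56, 0.98, 1.09 and 0.56 in PB libraries, 2.77, 4.08, 3.02 and 1.91 in RA libraries, and 1.17, 2.29, 1.24 and 2.07 in DMSO libraries, with no call.

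Other genes of the pathway were read from lists of the remaining family members, the RET adaptors and the transcription factors tied to RET. Of 8 other ligands, receptors and co-receptors, 4 rose and 1 fell with PB+RA (15.2% and 19.4% of all genes), 2 rose and 1 fell with PB (4.72% and 12.4%), and 2 rose and 0 fell with RA (9.02% and 6.76%). GDF15, a distant relative whose receptor GFRAL also signals through RET, had a mean gene signal of 119 in PB+RA, 34.1 in PB, 182 in RA and 35.5 in DMSO, and rose by 1.75 with PB+RA (adjusted p = 4.5e-06) and 2.37 with RA (adjusted p = 1.5e-07). GAS1, a GFRA-like protein of the cell surface, averaged 9.68 in PB+RA, 8.48 in PB, 23.6 in RA and 28.3 in DMSO, and fell by 1.42 with PB+RA (adjusted p = 0.0044) and fell by 1.61 with PB (adjusted p = 0.0049). NCAM1, an alternative receptor of GDNF, averaged 795 in PB+RA, 637 in PB, 519 in RA and 477 in DMSO, and rose by 0.73 with PB+RA. SORL1, a sorting receptor that carries GDNF, averaged 229 in PB+RA, 148 in PB, 178 in RA and 106 in DMSO, and rose by 1.13 with PB+RA, 0.51 with PB and 0.77 with RA.

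Of 21 adaptors and docking proteins of RET, 4 rose and 5 fell with PB+RA, 1 rose and 3 fell with PB, and 3 rose and 1 fell with RA, beside the same shares of all genes (15.2% and 19.4% with PB+RA, 4.72% and 12.4% with PB, 9.02% and 6.76% with RA). The median log2 difference over this list was 0.10 with PB+RA, -0.19 with PB and -0.01 with RA, beside -0.05, -0.14 and -0.01 over all genes. GAB2, a docking protein that binds PI3K, averaged 689.8 in PB+RA, 379 in PB, 577 in RA and 252 in DMSO, and rose by 1.44 with PB+RA, 0.58 with PB and 1.19 with RA. DOK4, a docking protein of RET, averaged 564 in PB+RA, 1162 in PB, 430.3 in RA and 1174 in DMSO, and fell by 1.04 with PB+RA and fell by 1.44 with RA. SHC2, an adaptor toward RAS, averaged 41.5 in PB+RA, 12.9 in PB, 35.2 in RA and 15.02 in DMSO, and rose by 1.36 with PB+RA and 1.19 with RA. GRB2, the adaptor that links receptors to the RAS activator SOS, averaged 117 in PB+RA, 89.0 in PB, 95.0 in RA and 71.6 in DMSO, and rose by 0.71 with PB+RA.

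Of 13 transcription factors tied to RET, 11 had a region, of which 2 rose and 4 fell with PB+RA (15.2% and 19.4% of all genes), 1 rose and 0 fell with PB (4.72% and 12.4%), and 2 rose and 4 fell with RA (9.02% and 6.76%). RARB, a retinoic acid receptor and a known target of the drug, averaged 279 in PB+RA, 95.5 in PB, 345 in RA and 74.0 in DMSO, and rose by 1.89 with PB+RA and 2.21 with RA. GATA3, a sympathetic factor, averaged 392 in PB+RA, 709 in PB, 309 in RA and 776 in DMSO, and fell by 0.99 with PB+RA and fell by 1.33 with RA. The summed adrenergic markers were lowest in RA libraries (1879.5 to 2256), in which RET was higher than in DMSO, and their part in the RET difference was not tested.

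Among 15686 genes with a peak in at least 8 libraries, those whose log2 gene signal followed RET most closely over the 16 libraries were CSGALNACT2 (Pearson r = 0.99), which shares the long region and so much of the value, SYNJ2 (r = 0.95) and ARSI (r = 0.94). The closest to GFRA2 were AIFM2, GRAMD1A and ISG20 (r = 0.91 to 0.92), to GFRA1 EPHB6, DLG3 and F2R (r = 0.85 to 0.86) and to GFRA3 ERH, SLC39A9 and PTGER4 (r = 0.89 to 0.90). ERH and SLC39A9 had the same r with GFRA3 (0.895232), and whether they share a region was not examined. These values describe likeness across libraries that share groups, scaling and the replicate sets described above.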

How the data were processed

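H3K27ac ChIP-seq of SK-N-BE(2)C cells (4 ChIP libraries per group: PB+RA, PB, RA, DMSO) was used, and the 16 input libraries have no values of their own. The authors, by the submitters' processing notes, used fastp 0.12.4, Bowtie2 2.4.4, MACS2 2.2.7.1 and DiffBind 3.4 on hg19 (the study's methods name another Bowtie2 release). The deposited peak lists are broad peaks called per library and give fold enrichment over input (a ratio) with −log10 q and −log10 p for each peak. The deposited comparison tables hold the authors' mean log2 concentration per group over the same regions. Their log2 fold, p-value and FDR columns are the authors' own comparisons and were not used.

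Regions were assigned with GENCODE release 44 lifted to GRCh37 (78714 protein-coding start sites; 92092 of 92108 regions on the reference). Peak signal was the sum of fold enrichment times overlapped bases over region length, scaled so that regions with a peak in all 16 libraries had equal medians. limma 3.58.1 in R 4.3.3 (group means over all 16 libraries, trended and robust moderation, pseudocount 1, Benjamini-Hochberg over all features) was checked on simulated data. Python 3.11.15 and SciPy 1.17.1 gave the permutation tests. A pipeline that discards unpeaked reads sets weak acetylation to 0, and scaling hides a global change. Replicate numbers came from the titles. Same-numbered RA and DMSO libraries deviated together (r = 0.27, 0.24, 0.12 and 0.26 over regions), as did PB+RA and PB libraries (0.29, 0.27, 0.21 and 0.13). The r was also above 0 for PB with RA (0.21, 0.15, 0.19 and 0.14) and PB+RA with RA (0.26, 0.15, 0.09 and 0.22). It was weaker for PB with DMSO (0.14, 0.04, 0.04 and 0.26) and mixed for PB+RA with DMSO (0.10, -0.01, -0.12 and 0.17). A fit with the number as a block was run.

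Named were, per member, regions within 3 kb of a start, called regions (at most 4) and the 2 with the largest concentration differences, and up to 4 called genes per list by adjusted p; the GDNF regions at 37938592 and 37791036 and the GFRA2 region at 21623418 fall outside it and were named after their values were seen. Some genes that the rule selects are not reported here. The member genes, lists and tests were chosen with earlier results of these data known. Alternatives covered scaling, pseudocount, peak threshold, GC content, fold minimum, distance, libraries fitted and left out.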

Additional observations from a re-analysis of the deposited data

Results flagged for a closer look

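A pair of results stood out because the effect of PB differed between cells with and without RA. The GDNF gene signal had a PB effect that was lower with RA than without it (difference -0.95 on the log2 scale, limma adjusted p = 0.020), since PB+RA averaged 83.8 and RA 89.3, while PB averaged 88.0 and DMSO 48.1. The GDNF start site region showed the same kind of difference (-1.03, limma adjusted p = 0.04995), a call lost when any of the 16 libraries was left out. This region (8.63 kb, mean peak signal 5.06 in DMSO) makes up most of the GDNF gene signal. The start site result is therefore largely the same measurement as the gene result. No library stood far from the other 3 of its group by Dixon's criterion at any of the 7 genes (28 groups checked).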

How the results depend on the processing

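Leaving out 1 library at a time gave between 3 and 13 decreased member regions with PB+RA, 3 and 12 with PB and 0 and 7 with RA, and between 5 and 7 increased with PB+RA, 2 and 3 with PB and 4 and 7 with RA, the highest numbers of decreases without DMSO replicate 3. Without scaling, 1 region rose with PB and 3 with RA. With peaks of −log10 q of at least 3, 1 rose and 2 fell with PB and 4 fell with PB+RA. With GC classes, 2 fell with PB and 1 with PB+RA. With only the 8 libraries compared, 3 fell with PB+RA, 2 with PB and 0 with RA. With start sites within 50 kb, 3 rose with PB+RA and 1 with PB. Replicates 1 and 2 alone gave 18 decreases with PB+RA, 12 with PB and 5 with RA, and replicates 3 and 4 alone gave 1 decrease with PB+RA, 0 of either direction with PB, and 1 increase and 0 decreases with RA. How many of all regions passed in each of these alternative fits is not given here. A change in a member count between fits may therefore reflect calls over all regions and is no result about the members. With a minimum concentration difference of 1, 5 regions were higher and 9 lower with PB+RA, 1 and 10 with PB, and 4 and 4 with RA. Over all 92108 regions, 18223 were higher and 14818 lower with PB+RA, 6694 and 7495 with PB, and 13425 and 6671 with RA. Where peaks had to cover at least 50% of a region, 1 region was gained with PB+RA, 0 with PB and 2 with RA. Over all 92108 regions, 3474 were gained with PB+RA, 393 with PB and 2152 with RA. By the same rule 0 member regions were lost with PB+RA, 2 with PB and 0 with RA. Among all regions 1665, 771 and 1377 were lost, in the same order.

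Sign changes were seen at differences within their error. RET with PB was -0.073 unscaled, -0.019 in replicates 1 and 2 and -0.034 to 0.21 without 1 library. GFRA2 with RA was 0.0075 in replicates 3 and 4 and -0.27 to 0.041 without 1 library. GFRA1 with PB was -0.016 at the stricter peak threshold and -0.15 to 0.35 without 1 library, with RA -0.23 at pseudocount 0.25, -1.01 in replicates 1 and 2 and -0.29 to 0.80, and with PB+RA 0.063 by GC class, 0.47 in replicates 3 and 4 and -0.65 to 0.092. GFRA3 with PB was 0.73 in replicates 1 and 2 and -0.66 to 0.14 without 1 library, with RA 0.50 at the stricter threshold and -0.47 to 0.33, and with PB+RA -0.37 and -0.28 to 0.69. Gene calls against DMSO were lost, without scaling, for RET with PB+RA (0.60) and RA (0.55), GFRA2 with PB+RA (-0.61) and NRTN with RA (-0.61), and by GC class for GFRA2 (-0.45) and NRTN (-0.36) with PB+RA and NRTN (-0.09) and ARTN (-0.91) with PB. The GDNF interaction was lost without scaling (-0.77). The cause was not tested. The replicate block ended none of the calls given in the text (RET 0.65 with PB+RA and 0.61 with RA), and gave 9 decreased regions with PB+RA in place of 7. Read depth is unknown, and weak regions with few peaks limit GFRA1 and GFRA3.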
